A study of Homo sapiens with 24 samples.

Results

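The 10 genes that encode the SF3A and SF3B subunits of U2 snRNP were followed across 24 RNA-seq libraries. The members were taken by name as SF3B1, SF3B2, SF3B3, SF3B4, SF3B5, SF3B6, PHF5A, SF3A1, SF3A2 and SF3A3, and their symbols were matched to Ensembl identifiers, which placed all 10 among the 60236 genes of the count table. The study raised SF3B2 from a plasmid, and the question asked here was whether the transcripts of the other 9 genes, called the partner subunits below, moved with it. HEK293T, a human embryonic kidney line, and A549, a lung adenocarcinoma line, were each transfected with 1 of 4 plasmids and collected 48 h later, with 3 libraries for each of the 8 groups of cell line and plasmid. The SF3B2 and eGFP plasmids were matched pcDNA3.1-type vectors that add a C-terminal flag tag to the protein, with eGFP (a fluorescent protein) as the control for SF3B2. The snaR-A plasmid expressed the small noncoding RNA snaR-A from a U6 promoter, and the scramble plasmid, its control, expressed a scrambled form of that RNA from the same promoter. All groups therefore received a plasmid and transfection reagent, and no untransfected cells were analysed here. Replicates were described as biological replicates processed on the same day, and each line stands for 1 genetic background.

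U2 snRNP is the spliceosome particle that recognises the branch site of an intron. SF3B forms its multi-subunit branch-site clamp, and SF3A ties SF3B to the core of the particle, which holds the U2 snRNA and its Sm ring. Within SF3B, SF3B1 is the large arch-shaped subunit that encloses the branch helix, SF3B3 is a propeller-rich scaffold, SF3B2 binds SF3B4 at the periphery, SF3B4 and SF3B6 carry RNA recognition motifs, SF3B5 is a small scaffold protein, and PHF5A is a zinc-finger protein that lines the branch adenosine pocket together with SF3B1. SF3A1, SF3A2 and SF3A3 make up SF3A. Members of stable complexes are often thought to be needed in matched amounts, so the partner transcripts are of interest when 1 subunit is raised.

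The genes lie apart in the genome, on GRCh38 with GENCODE 44 coordinates. SF3B1 (ENSG00000115524) spans chr2:197388515-197435079 on the minus strand, and SF3B6 (ENSG00000115128) lies on the same chromosome at chr2:24067586-24076373, minus strand. SF3B2 (ENSG00000087365) is at chr11:66050729-66069308, plus strand, and its canonical transcript has 22 exons and 3272 bases. SF3B3 (ENSG00000189091) is at chr16:70523791-70577670, plus strand. SF3B4 (ENSG00000143368) and SF3A3 (ENSG00000183431) are both on chromosome 1, at chr1:149923317-149927803 and chr1:37956975-37990075, minus strand. SF3B5 (ENSG00000169976), at chr6:144094884-144095573 on the minus strand, is the only member with 1 exon. PHF5A (ENSG00000100410) and SF3A1 (ENSG00000099995) are on chromosome 22, at chr22:41459717-41468692 and chr22:30331988-30356919, minus strand. SF3A2 (ENSG00000104897) is at chr19:2236824-2248655, plus strand. Canonical transcripts ranged from 651 bases for SF3B6 to 9692 bases for SF3B3.

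Some of these transcripts share sequence with other genes, which limits how exactly their counts can be assigned. Of the 31-base words in its transcripts, SF3B4 shared 24.36% with other genes, most with its pseudogene SF3B4P1, SF3A3 shared 14.99%, most with SF3A3P1, and PHF5A shared 11.7%. SF3B5 shared 0%. SF3A1 overlaps CCDC157 and SF3A2 overlaps PLEKHJ1 in the annotation. The library kit was stranded, but whether the strand was used in quantification is not given in the sources used here.

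Depth was high and even. Totals ran from 195185935 to 260878271 estimated counts per library, and a partner subunit never had fewer than 3760 counts in a library, so counting error was small. It was not set beside the spread between replicates gene by gene. Levels below are CPM (counts relative to the library total) scaled by the trimmed mean of M-values (TMM) within each cell line, so a level may be compared between plasmids of 1 line but not directly between lines. In bulk RNA, fewer cells of a type and less RNA per cell cannot be told apart.

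A few libraries stood apart from their groups. For the partner subunits and SF3B2, several results are also given without them. Calls on the other gene lists are given with all libraries only. A549 scramble replicate 3 held 7470 CPM of SF3B2, against 317 and 288 CPM in the other A549 scramble libraries. That level was 18.6% of the mean of the A549 SF3B2 libraries. By the root mean square of log2 differences over 12787 genes, the same library was nearer to the A549 SF3B2 libraries (0.178 to 0.222) than to the other A549 scramble libraries (0.391 and 0.289), and it was also nearer to the A549 snaR-A libraries (0.207 to 0.233). A549 scramble replicate 1 also stood apart, at 0.237 from scramble replicate 2 and 0.324 to 0.416 from every other A549 library. HEK293T eGFP replicate 3 held 845 CPM summed over 10 A549 marker genes, against 25.4 to 49.8 CPM in the other 11 HEK293T libraries and 16182 to 17734 CPM in A549 libraries, which is 4.96% of the A549 mean. Its interferon-response sum over 12 genes was 43.1 CPM, against 14.6 and 14.4 CPM in the other HEK293T eGFP libraries. HEK293T SF3B2 replicate 1 was 0.472 to 0.576 from every HEK293T library of the other plasmids and 0.344 and 0.447 from its own replicates. HEK293T SF3B2 replicate 3 was nearer to the HEK293T eGFP libraries (0.220 to 0.246) than to either of its own replicates (0.447 and 0.302). It was as near to the HEK293T snaR-A libraries (0.208 to 0.227). A549 snaR-A replicate 3 carried label fields that named both lines; its A549 marker sum was 16434 CPM and its HEK293T marker sum 52.5 CPM, as in the other A549 libraries. Between the lines, 10 of 10 A549 markers were lower in HEK293T, while 8 of 10 HEK293T markers were higher and 2 lower. ALDH1A1 was the most abundant A549 marker, no A549 marker was at 0 in all libraries of any group, and the part of these differences in the results below was not tested.

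SF3B2 itself was raised by its plasmid in every library of that group. In HEK293T it stood at 43982, 34026 and 28092 CPM with the SF3B2 plasmid and at 352, 390 and 343 CPM with eGFP. In A549 it stood at 41715, 39727 and 39264 CPM with the SF3B2 plasmid and at 257, 259 and 309 CPM with eGFP. The groups did not approach each other in either line, and SF3B2 took 2.78% to 4.13% of all counts in the 6 libraries. The log2 fold change was 6.60 in HEK293T (95% interval 6.04 to 7.17, adjusted p = 0.000534) and 7.19 in A549 (6.94 to 7.45, adjusted p = 7.05e-07) by edgeR's quasi-likelihood test with Benjamini-Hochberg adjustment, and group means differed 97.8-fold and 146-fold. These counts do not separate the plasmid's transcript from that of the endogenous gene.

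Set against its partners on a per-length scale, SF3B2 went from moderately above the median partner to a large excess. Dividing CPM by the length of the canonical transcript, SF3B2 was 1.51 to 1.95 times the median partner in the 9 HEK293T libraries without its plasmid and 126 to 183 times with it. In A549 the ratio was 2.05 to 3.01 in 8 libraries without the plasmid, 65.7 in scramble replicate 3, and 354 to 371 with the plasmid. The ratio was higher in every A549 SF3B2 library than in every HEK293T SF3B2 library.

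**Figure D1:**
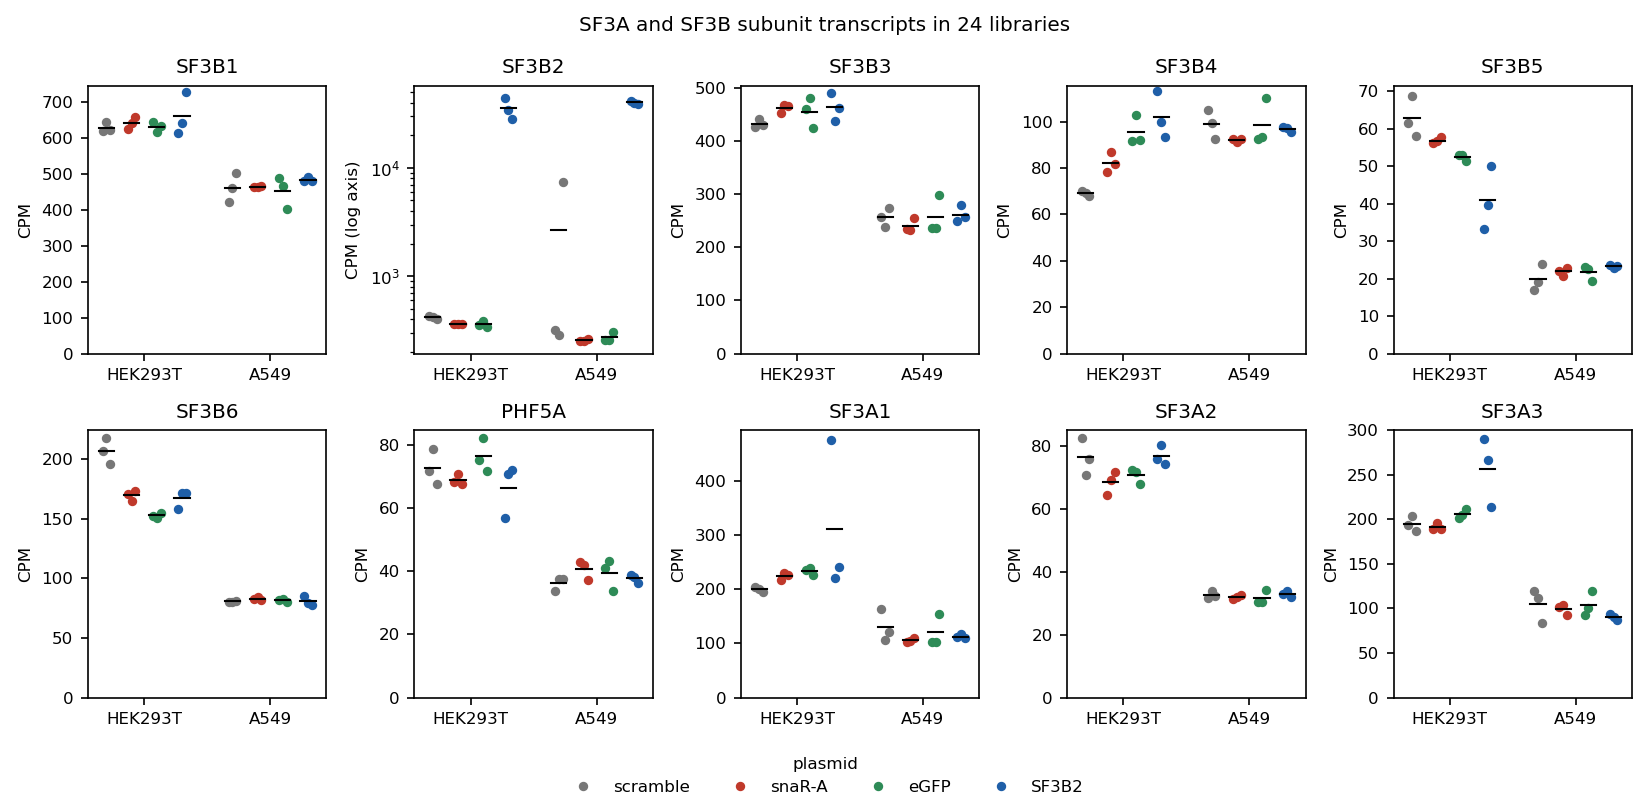
Level of each of the 10 subunit genes in the 24 libraries, as TMM-scaled CPM within each cell line (vertical axis, logarithmic for SF3B2 alone and starting at 0 elsewhere), by cell line and plasmid. Points are libraries and bars are means of 3; SF3B2 is far higher with its plasmid in both lines, A549 scramble replicate 3 lies between at 7470 CPM, and the partner subunits stay within 2.43-fold from lowest to highest library of a line.

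In HEK293T, none of the 9 partner subunits passed the test between SF3B2 and eGFP. In this comparison 0.172% of the 22623 genes tested were called at an adjusted p under 0.05, so few genes of any kind passed, while 4904 genes had an unadjusted p under 0.05. Of the partners, 2 had an unadjusted p under 0.05, SF3A3 and SF3B5. DESeq2 and edgeR's exact test also called 0 of 9, beside 9.19% and 2.85% of all genes. The median log2 fold change of the partners was 0.09, against -0.02 for all genes tested.

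SF3B5 and PHF5A had the lowest values. SF3B5, the small scaffold protein, was measured at 33.2, 39.5 and 50.01 CPM with SF3B2 and at 53.0, 53.0 and 51.2 CPM with eGFP. All 3 SF3B2 libraries lay below the eGFP libraries, replicate 3 only slightly. Its log2 fold change was -0.37 (95% interval -0.69 to -0.04, adjusted p = 0.203). PHF5A had a log2 fold change of -0.21 (-0.45 to 0.03), with the lowest SF3B2 library at 56.8 CPM and the other libraries of both groups between 70.7 and 82.3 CPM. Without SF3B2 replicate 1, which held the lowest level of both genes, PHF5A was -0.11 (adjusted p = 0.443) and SF3B5 -0.24 (adjusted p = 0.320). SF3B6, which contacts RNA near the branch site, was at 159, 171 and 172 CPM against 153, 151 and 155 CPM, a log2 fold change of 0.12 (-0.01 to 0.25).

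The large SF3B subunits and SF3B4 stayed close to the eGFP level. SF3B1 had a log2 fold change of 0.06 (95% interval -0.14 to 0.26), SF3B3 of 0.02 (-0.16 to 0.20) and SF3B4, the direct binding partner of SF3B2, of 0.09 (-0.11 to 0.29). For these 3 genes the groups overlapped. SF3B1 was highest in SF3B2 replicate 3, at 729 CPM, the library of that group with the least SF3B2.

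Of the SF3A subunits, SF3A3 and SF3A2 did not overlap between the groups. SF3A3 was at 290, 266 and 214 CPM with SF3B2 and at 202, 205 and 212 CPM with eGFP, so SF3B2 replicates 1 and 2 were well above and replicate 3 just above the highest eGFP library. The log2 fold change was 0.31 (95% interval 0.04 to 0.57, adjusted p = 0.191). SF3A1 was at 475, 220 and 241 CPM against 236, 239 and 226 CPM, and its log2 fold change of 0.41 (-0.26 to 1.07) rested on SF3B2 replicate 1, since without that library it was -0.03. SF3A2, which like SF3A3 carries a zinc finger, was at 76.1, 80.5 and 74.4 CPM against 72.4, 71.7 and 67.98 CPM, a log2 fold change of 0.11 (-0.01 to 0.24).

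The groups did not overlap for 4 of the 9 partners (SF3B5, SF3B6, SF3A2 and SF3A3), which is 44.4%, against 29.2% of all genes tested, and with 3 libraries against 3 an exact two-sided permutation test cannot go below p = 0.1. Without SF3B2 replicate 3, the SF3B2 library nearest to eGFP, SF3A3 (log2 fold change 0.44, adjusted p = 0.0363) and SF3B5 (-0.51, adjusted p = 0.0363) were called, beside 8.09% of all genes. With all 12 HEK293T libraries in 1 fit, SF3A3 alone was called (0.32, adjusted p = 0.0476), beside 8.69% of all genes. With library size alone SF3A3 was 0.14 (adjusted p = 0.295) and SF3B5 -0.51 (adjusted p = 0.140), neither called, beside 0.557% of all genes. With library size without SF3B2 counts they were 0.19 (adjusted p = 0.240) and -0.47 (adjusted p = 0.193), neither called, beside 0.309%. The lowest value of SF3A3 with 1 library left out was 0.21. Leaving out eGFP replicate 3, the library with A549 marker transcripts, gave 0 calls among the partners, beside 0.0559% of all genes.

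In A549, where the SF3B2 libraries were more alike, again none of the 9 partners passed the test between SF3B2 and eGFP. Here 7.02% of the 21581 genes tested were called by edgeR, and none of the partners but 4933 of all genes had an unadjusted p under 0.05. DESeq2 and the exact test likewise called 0 of 9, beside 13.3% and 8.07% of all genes. The partners' median log2 fold change was -0.02, against 0.01 for all genes, and their median absolute value of 0.06 lay beside 0.13 for all genes. All 9 partners overlapped between the groups, whereas 30.2% of all genes tested did not.

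The A549 intervals were narrow enough to bound the changes. Over the 9 partners the 95% intervals ran from -0.46 to 0.27 on the log2 scale, both ends set by SF3A1, so changes beyond 0.727-fold lower or 1.21-fold higher lay outside every interval. SF3B1 had a log2 fold change of 0.09 (95% interval -0.07 to 0.26), SF3B4 of -0.03 (-0.19 to 0.13) and SF3B6 of -0.02 (-0.12 to 0.08). SF3A3, which was higher with SF3B2 in HEK293T libraries, was at 93.5, 90.7 and 87.1 CPM with SF3B2 and at 92.4, 101 and 119 CPM with eGFP in A549, a log2 fold change of -0.21 (-0.42 to 0.01, adjusted p = 0.230) that was -0.10 (adjusted p = 0.233) without eGFP replicate 3. SF3B5 was at 23.7, 22.7 and 23.4 CPM against 23.1, 22.5 and 19.4 CPM, a log2 fold change of 0.10 (-0.06 to 0.26) that was 0.03 (adjusted p = 0.635) without the same library.

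One eGFP library set the wider A549 intervals. A549 eGFP replicate 3 had SF3A1 at 155 CPM, against 103 and 103 CPM in the other eGFP libraries and 110 to 118 CPM with SF3B2. Without it PHF5A was called (log2 fold change -0.16, adjusted p = 0.0403), beside 14.7% of all genes tested. Interferon-response genes moved strongly between these groups, with 12 of 12 lower with SF3B2 (median log2 fold change -2.23) and a summed level of 3225 ± 393 CPM with eGFP and 769 ± 87.1 CPM with SF3B2 (SD, n = 3). IFIT1 was the most abundant of them, and their part in the values of the partner subunits was not tested.

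**Figure D2:**
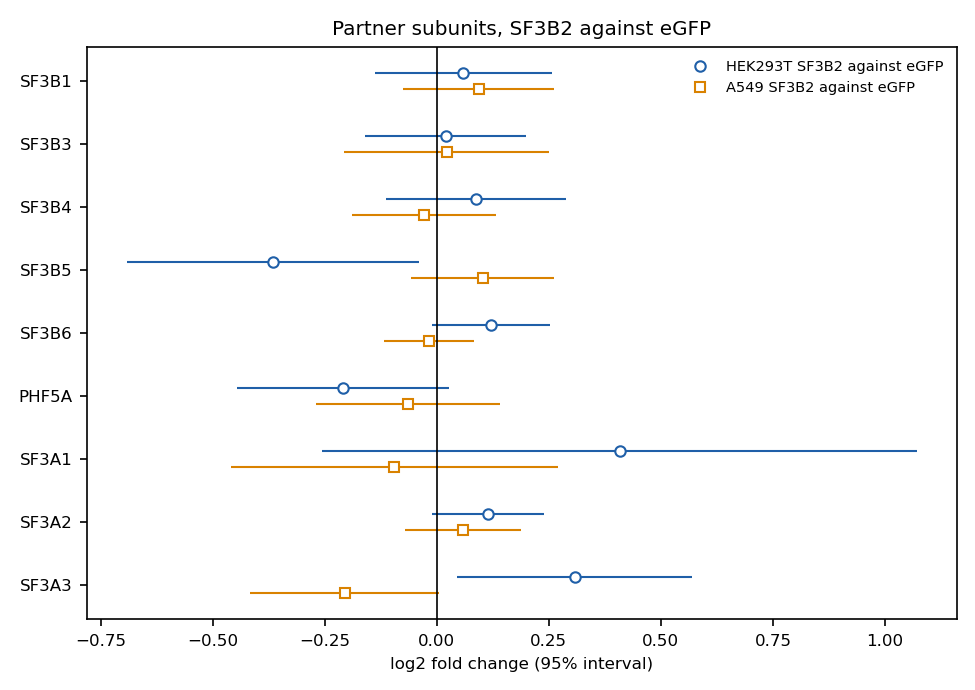
Log2 fold change of each partner subunit between SF3B2 and eGFP libraries (horizontal axis, 95% interval as a line) in HEK293T (circles) and A549 (squares), 3 libraries a group. Open symbols are genes not called at an adjusted p under 0.05; every symbol is open, and SF3B4, SF3B5, SF3B6, SF3A1 and SF3A3 lie on opposite sides of 0 in the 2 lines, with signs for SF3B4 and SF3B6 that turn under scaling by library size.

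Whether the effect differed between the lines was tested as an interaction of line and plasmid over 12 libraries. None of the 9 partners was called, beside 6.1% of the 24714 genes tested. An unadjusted p under 0.05 was found for 3 of 9 partners and for 6694 of all genes tested. The HEK293T effect minus the A549 effect was 0.54 for SF3A3 (95% interval 0.19 to 0.89, adjusted p = 0.0654), -0.44 for SF3B5 (-0.82 to -0.06, adjusted p = 0.136) and 0.17 for SF3B6 (0.02 to 0.31, adjusted p = 0.149). SF3A3 was called by DESeq2 (0.55, adjusted p = 0.0107), beside 16.2% of all genes, and with at least 10 counts required in every library (0.53, adjusted p = 0.0463), beside 12.5%. Without HEK293T SF3B2 replicate 3, SF3A3 (0.66) and SF3B5 (-0.61) were both called, beside 17.9% of all genes.

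Against scramble, partners were called in HEK293T with every plasmid, in shares near those of all genes. With SF3B2, 4 of 9 partners were called beside 34.3% of the 22593 genes tested: SF3B4 and SF3A3 rose (16.8% of all genes rose), and SF3B5 and SF3B6 fell (17.5% of all genes fell). With eGFP, 4 of 9 were called beside 48.8% of genes, with SF3B4 and SF3A1 higher (22.9% of all genes) and SF3B5 and SF3B6 lower (25.8%). With snaR-A, 3 of 9 were called beside 36.3% of genes, with SF3B4 and SF3A1 higher (17.8%) and SF3B6 lower (18.5%). The share of all genes called with SF3B2 was 16.8% without scramble replicate 1, 21.1% without scramble replicate 2 and 20.2% without SF3B2 replicate 2, and that with snaR-A was 22.1% without snaR-A replicate 2. The 3 comparisons share the scramble libraries, so values are set side by side and are not separate evidence.

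SF3B4 rose against scramble with every plasmid. Its level was 70.2, 69.2 and 68.1 CPM with scramble, 78.5, 86.9 and 81.6 CPM with snaR-A, 91.7, 103 and 92.0 CPM with eGFP, and 113, 99.7 and 93.5 CPM with SF3B2. The scramble libraries lay below all 9 others, while the eGFP and SF3B2 libraries overlapped. The log2 fold change against scramble was 0.58 with SF3B2 (95% interval 0.40 to 0.76, adjusted p = 0.00219), 0.47 with eGFP (0.35 to 0.60, adjusted p = 0.000479) and 0.26 with snaR-A (0.16 to 0.36, adjusted p = 0.00292).

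SF3B6 was highest with scramble. It was at 207, 218 and 196 CPM with scramble, 171, 165 and 173 CPM with snaR-A, and 153, 151 and 155 CPM with eGFP, and all SF3B2 libraries (159 to 172 CPM) were likewise below scramble. The log2 fold change was -0.29 with SF3B2 (adjusted p = 0.0159), -0.43 with eGFP (adjusted p = 0.000827) and -0.27 with snaR-A (adjusted p = 0.00442).

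For SF3B5 and SF3A3 the value against scramble was larger in size with SF3B2 than with eGFP. SF3B5 was at 61.5, 68.8 and 57.9 CPM with scramble, and its log2 fold change was -0.60 with SF3B2 (adjusted p = 0.0178), -0.25 with eGFP (adjusted p = 0.0179) and -0.13 with snaR-A (adjusted p = 0.138, and 0.0315 without scramble replicate 3). The eGFP call was lost with library size alone (-0.15, adjusted p = 0.0974), with library size without SF3B2 counts (-0.15, adjusted p = 0.0972) and with all 12 libraries in the fit (-0.26, adjusted p = 0.0870). SF3A3 was at 193, 204 and 187 CPM with scramble, and its log2 fold change was 0.42 with SF3B2 (adjusted p = 0.0241), 0.09 with eGFP (adjusted p = 0.213) and -0.01 with snaR-A (adjusted p = 0.845). With library size alone the eGFP value was 0.20 and called (adjusted p = 0.0106), as it was with library size without SF3B2 counts (0.20, adjusted p = 0.0107). The direct test of SF3B2 against eGFP, given above, called neither gene. The calls of SF3B5, SF3B6 and SF3A3 with SF3B2 were each lost when scramble replicate 1, scramble replicate 2 or SF3B2 replicate 2 was left out (adjusted p 0.0531 to 0.0869), and that of SF3A3 also without scramble replicate 3 (0.0812), with the fold changes between 0.38 and 0.46 for SF3A3, -0.62 and -0.52 for SF3B5 and -0.29 and -0.24 for SF3B6.

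SF3A1 was at 203, 201 and 195 CPM with scramble and rose to a log2 fold change of 0.23 with eGFP (adjusted p = 0.00477) and 0.18 with snaR-A (adjusted p = 0.0105, and 0.0583 without snaR-A replicate 2). Both calls were lost with all 12 libraries of the line in the fit, at 0.23 and 0.17 (adjusted p = 0.423 and 0.615). With SF3B2 its value was 0.66, not called (95% interval 0.04 to 1.29, adjusted p = 0.0933), and SF3B2 replicate 1 lay alone at 475 CPM. Without that library it was 0.24 and called (adjusted p = 0.0286). SF3A1 was also called by the exact test (0.66, adjusted p = 0.0441), with all 12 libraries (0.64, adjusted p = 0.0343) and without SF3B2 replicate 3 (0.82, adjusted p = 0.0464). SF3B1, SF3B3, PHF5A and SF3A2 were not called in any of the 3 HEK293T comparisons with scramble, with log2 fold changes between -0.15 and 0.12. Under other settings SF3B3 was called with snaR-A by DESeq2 (0.11, adjusted p = 0.0272), and with library size alone SF3B1 (0.14, adjusted p = 0.0309) and SF3B3 (0.21, adjusted p = 0.00439) were called with snaR-A and SF3B3 with eGFP (0.18, adjusted p = 0.0451). SF3A2 was called with snaR-A without scramble replicate 2 (-0.20, adjusted p = 0.0404). HEK293T marker genes summed to 830 ± 30.1 CPM with scramble, 541 ± 29.7 CPM with snaR-A, 576 ± 77.8 CPM with SF3B2 and 466 ± 5.37 CPM with eGFP (SD, n = 3), and NEFM carried much of the difference, at 438 CPM with scramble and 222 CPM with SF3B2. Between SF3B2 and scramble 6 of the 9 tested markers had positive and 3 negative log2 fold changes, with a median of 0.07, and 2 were called, both lower. With eGFP 1 was positive and 8 negative (median -0.23, 3 called lower), and with snaR-A likewise 1 and 8 (median -0.20, 4 called lower). The part of these genes in the partner values was not tested, and 1 of the 10 was at 0 in all scramble libraries.

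In A549, 0 of 9 partners were called against scramble with any plasmid by edgeR's quasi-likelihood test, and none had an unadjusted p under 0.05. Of all genes, 2801 with SF3B2, 1437 with eGFP and 1329 with snaR-A had an unadjusted p under 0.05. The share of all genes called was 0.233% with SF3B2, 1.49% with eGFP and 0.0185% with snaR-A. Partner log2 fold changes ran from -0.22 to 0.22 with SF3B2, from -0.11 to 0.12 with eGFP and from -0.31 to 0.16 with snaR-A. The -0.31 was SF3A1, at 164, 107 and 120 CPM with scramble and 103 to 110 CPM with snaR-A. With 1 library left out that value ran from -0.43 to -0.11. DESeq2 and the exact test also called 0 of 9 in each. They called 1.75% and 0.997% of all genes with SF3B2, 2.47% and 1.96% with eGFP, and 0.175% and 0.0923% with snaR-A.

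Scramble replicate 3, the library that held SF3B2 transcript, weighed on this result. Without it 21.9% of genes were called between SF3B2 and scramble, and among the partners SF3B5 rose (log2 fold change 0.35, adjusted p = 0.00870) and SF3A3 fell (-0.37, adjusted p = 0.00532). The levels were 17.0 and 19.1 CPM for SF3B5 in the other scramble libraries against 22.7 to 23.7 CPM with SF3B2, and 120 and 112 CPM for SF3A3 against 87.1 to 93.5 CPM. Of all A549 libraries, scramble replicate 1 held the lowest SF3B5 and the highest SF3A3. With replicate 1 left out in place of replicate 3, neither gene was called (adjusted p = 0.770 and 0.804). In scramble replicate 3, SF3B5 was at 23.96 CPM and SF3A3 at 83.7 CPM, beyond the SF3B2 libraries for both genes. Both directions were the opposite of those against scramble in HEK293T. With eGFP, without scramble replicate 3, the same genes had values of 0.26 (adjusted p = 0.389) and -0.15 (adjusted p = 0.618), and with snaR-A 0.27 (adjusted p = 0.0907) and -0.23 (adjusted p = 0.101), none of them called.

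**Figure D3:**
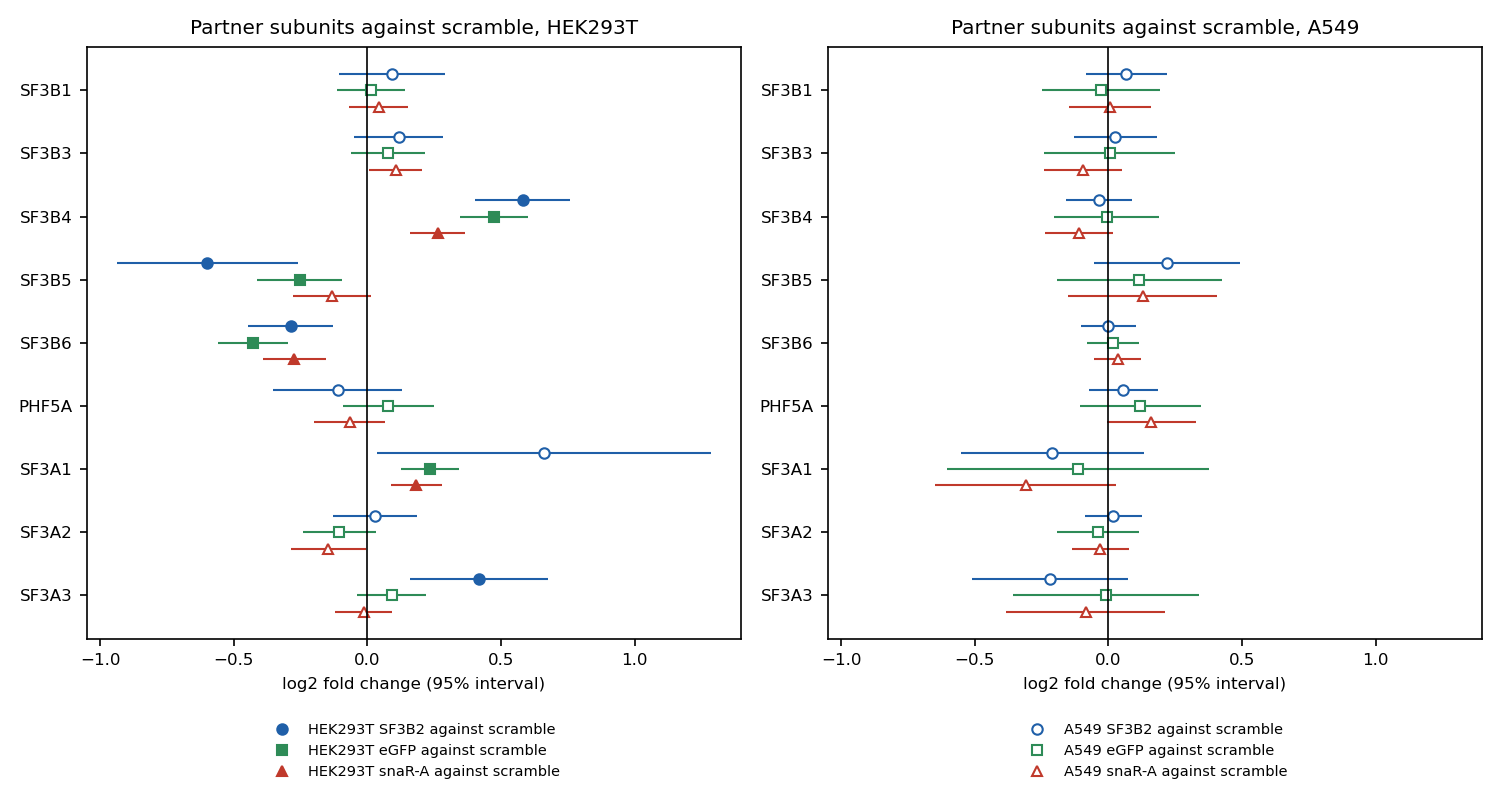
Log2 fold change of each partner subunit against scramble (horizontal axis, 95% interval as a line) with SF3B2 (circles), eGFP (squares) and snaR-A (triangles) in HEK293T (left) and A549 (right), all libraries included. Filled symbols are called at an adjusted p under 0.05; SF3B4 and SF3B6 are filled with every plasmid in HEK293T and no symbol is filled in A549.

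The snaR-A plasmid went with a slightly lower SF3B2 transcript in HEK293T. SF3B2 was at 363, 364 and 360 CPM with snaR-A and at 434, 422 and 407 CPM with scramble, and it fell by 0.20 on the log2 scale (95% interval -0.30 to -0.10, adjusted p = 0.00789). The eGFP value was much the same, -0.21 (-0.36 to -0.06, adjusted p = 0.0263), although that call was lost when eGFP replicate 1, eGFP replicate 3, scramble replicate 1 or scramble replicate 2 was left out (adjusted p 0.0622 to 0.0970). With library size as the only scaling neither was called, at -0.11 for both (adjusted p = 0.0691 and 0.220), nor was either with all 12 libraries of the line in the fit, at -0.22 for both (adjusted p = 0.264 and 0.200). In A549, SF3B2 was at 255, 251 and 266 CPM with snaR-A against 317 and 288 CPM in scramble replicates 1 and 2, a log2 fold change of -0.24 (adjusted p = 0.0798) without scramble replicate 3 and -0.26 (adjusted p = 0.116) when snaR-A replicate 3 was left out as well. With all libraries included the value was -3.39 (adjusted p = 0.794).

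Per transcript length, the members differed in level by several fold. In HEK293T eGFP libraries SF3B6 was the highest at 235 ± 3.22 CPM per kb, followed by SF3B2 at 111 ± 7.56 and SF3B1 at 97.8 ± 2.05 (SD, n = 3). SF3B5 (75.9 ± 1.45), SF3A3 (74.3 ± 1.83) and PHF5A (72.6 ± 5.09) came next and did not differ beyond their spread. SF3B4 stood at 61.9 ± 4.16 CPM per kb. SF3B3 (46.9 ± 2.92), SF3A1 (45.9 ± 1.37) and SF3A2 (43.7 ± 1.47) were the lowest, and their libraries overlapped. In A549 eGFP libraries SF3B6 (126 ± 2.14), SF3B2 (84.0 ± 8.9995), SF3B1 (70.2 ± 6.98) and SF3B4 (63.9 ± 6.37) led. The SF3B2 libraries lay above those of SF3B1, while SF3B1 and SF3B4 overlapped. SF3A3 (37.6 ± 4.99), PHF5A (37.4 ± 4.66) and SF3B5 (31.4 ± 2.89) followed, and SF3B3 (26.5 ± 3.67), SF3A1 (23.6 ± 5.92) and SF3A2 (19.6 ± 1.37) were the lowest. These values divide by 1 canonical length per gene, so a line that uses a shorter isoform would be given too low a level.

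**Figure D4:**
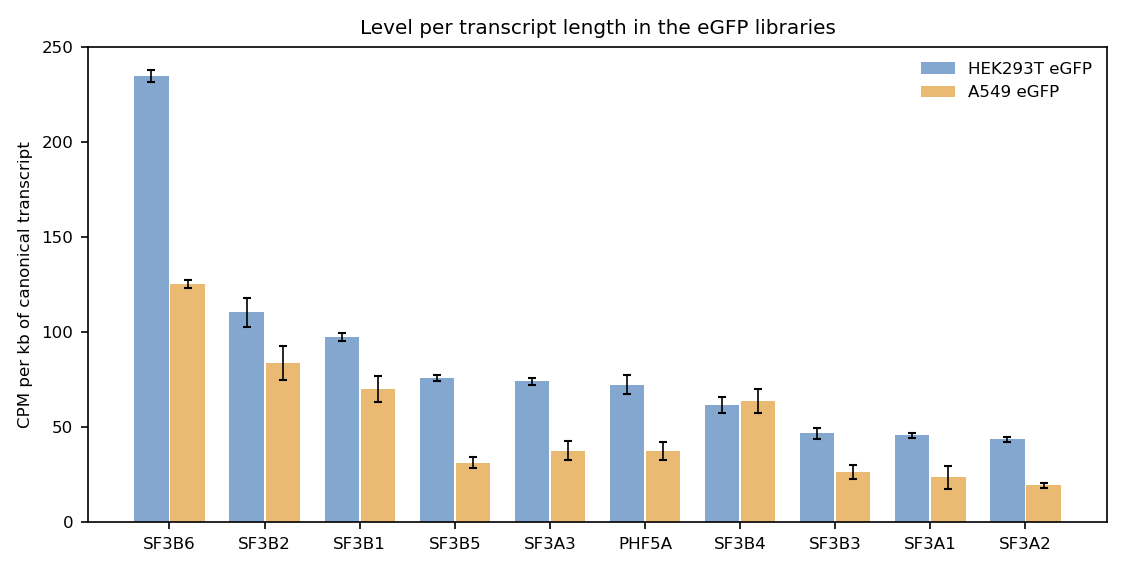
Level of the 10 subunit genes per transcript length in the eGFP libraries (vertical axis, CPM per kb of canonical transcript, scaled within each line), HEK293T and A549 side by side. Bars are means and lines SDs of 3 libraries; SF3B6 is highest and SF3A2 lowest in both lines.

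Between the lines, 8 of 9 partners were called, beside 83.8% of the 25923 genes tested, so a call here is common. Of the partners, 7 of 9 were higher in HEK293T (42.1% of all genes were): log2 differences were 0.81 for SF3B5, 0.71 for SF3A2, 0.62 for SF3B6, 0.61 for SF3A3, 0.57 for SF3A1, 0.42 for PHF5A and 0.37 for SF3B3. SF3B4 was lower in HEK293T, at -0.63 (95% interval -0.75 to -0.50), where 41.7% of all genes were lower. SF3B1 did not pass the test, at -0.00 (-0.08 to 0.07). The median of the partners was 0.57 against 0.01 for all genes, and their median absolute value of 0.61 was below the 0.94 of all genes.

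The size of these line differences depends on scaling. With library size alone the median of all genes tested moved by 0.46 on the log2 scale, SF3B1 became 0.46 (called) and SF3B4 -0.16 (still called and lower). The 8 calls were kept as a number when any single library was left out, and when A549 scramble and snaR-A replicates 3 were left out together. In the scramble libraries alone SF3A1 was 0.21 and not called (adjusted p = 0.214). SF3B4 differed most between the lines in the scramble libraries (-0.93) and least in the SF3B2 libraries (-0.38).

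The other spliceosome genes were counted in the same comparisons. Between SF3B2 and eGFP in HEK293T, 0 of the 66 genes tested on 6 lists were called, beside 0.172% of all genes, a share at which no call among 66 genes is unremarkable. These lists were the U2 snRNP core (9 tested), U2-associated factors (20), U1 snRNP (6), U5 snRNP (8), U4/U6 and tri-snRNP (14) and the U12-type snRNP (9). In A549 the same comparison gave 1 call among U5 proteins, TXNL4A, at 35.4, 38.9 and 37.7 CPM against 32.0, 32.5 and 32.8 CPM (log2 fold change 0.20, adjusted p = 0.0386), and 1 among tri-snRNP proteins, SNU13, at 40.8, 38.1 and 38.8 CPM against 33.2, 35.0 and 31.1 CPM (0.24, adjusted p = 0.0389). No other gene of the 66 was called there, beside 7.02% of all genes.

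Against scramble in HEK293T with SF3B2, the U2-associated factors had the most calls, 11 of 20, all higher, with a median log2 fold change of 0.28 against -0.01 for all genes, of which 34.3% were called and 16.8% were higher. With eGFP 10 of 20 were called against scramble, all higher, beside 48.8% of all genes called and 22.9% higher. With snaR-A 5 of 20 were called, all higher, beside 36.3% called and 17.8% higher. SUGP1, a G-patch splicing factor, rose by 0.57 (adjusted p = 0.00575) and DDX42, a DEAD-box helicase that binds SF3B1, rose by 0.50 (adjusted p = 0.00406), and with eGFP the same genes stood at 0.47 and 0.45 against scramble. Of the U2 snRNP core, SNRPD3 was higher (0.65, adjusted p = 0.0389) and SNRPD2 lower (-0.49, adjusted p = 0.0166), both Sm ring proteins. SNRPD3 was at 382, 314 and 209 CPM with SF3B2 against 188, 213 and 184 CPM with scramble, so SF3B2 replicate 3 lay within the scramble libraries. With eGFP SNRPD3 stood at -0.12 (adjusted p = 0.348) and SNRPD2 at -0.44 (adjusted p = 0.0038). Of the 9 core genes, 4 were called lower and 0 higher with eGFP against scramble, beside 25.8% of all genes lower. With snaR-A the counts were likewise 4 lower and 0 higher, beside 18.5% of all genes lower.

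The remaining lists had fewer calls between SF3B2 and scramble in HEK293T, beside the same 34.3% of all genes. Against scramble 4 of 8 U5, 9 of 14 tri-snRNP and 7 of 9 U12-type proteins were called with eGFP, more in each than with SF3B2, as was also so of all genes (48.8% with eGFP). Of the U5 proteins 3 of 8 rose, led by CD2BP2 (0.46) and PRPF6 (0.34). Of the tri-snRNP proteins 3 rose and 2 fell of 14, among them SART1 (0.64) and PRPF3 (0.42), which rose, and LSM7 (-0.48) and SNU13 (-0.41), which fell. Of the U1 proteins LUC7L2 (0.35) rose and SNRPA (-0.25) fell, and of the U12-type proteins ZRSR2 (0.54) and SNRNP48 (0.30) rose. With eGFP these genes stood at 0.44 and 0.31, at 0.35, 0.45, -0.30 and -0.26, at 0.12 and -0.30, and at 0.51 and 0.27, in the same order. In A549 0 genes of the 6 lists were called between SF3B2 and scramble, where 0.233% of all genes were called with scramble replicate 3 included, so the count says little about these lists.

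The profile of the 9 partners was summarised by their mean, in which members that move in opposite directions offset each other. Taken as deviations from the mean of their own line on the log2 scale, their average had an SD of 0.041 over the 24 libraries, with the highest value in HEK293T SF3B2 replicate 1 (0.107, where SF3A1 was at 1.02 and SF3B5 at -0.65) and the lowest in HEK293T scramble replicate 3 (-0.081). Among 5779 genes compared, those with the profile most like it were ILF2 (Pearson r = 0.866 over 24 libraries), C8orf33 (0.853), PSMB2 (0.851), RNF167 (0.832) and FAM32A (0.829). These points share libraries and scaling, and the values are a description only.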

How the data were processed

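Ribosomal RNA-depleted, poly(A)-enriched RNA was sequenced from 24 libraries. The authors trimmed reads with Trim Galore and quantified transcripts with Salmon against hg38; the deposited values are estimated counts per gene, of which 50.96% were not whole. The transcriptome release and the step from transcripts to genes are not given in the sources used here. Counts were rounded. Comparisons used edgeR 4.0.16 (quasi-likelihood F-test, TMM, filterByExpr, Benjamini-Hochberg over all genes tested; called at an adjusted p under 0.05), with the libraries of the 2 groups in each fit, the plasmid as covariate between lines, and an interaction for the difference of effects. Intervals are t-based from each fit. All 10 members passed the filter in every comparison. Alternatives were DESeq2 1.42.0, edgeR's exact test, other scalings and filters, 1 fit per line, a replicate block, and leaving out each library. The fits were tested on simulated data with the same replicate spread for every gene and no outlying libraries, unlike the data here. Replicates all differed by more than sampling noise (lowest chi-square over its degrees of freedom 20.3 in 24 pairs). All members were named, and up to 2 called genes in each direction from each other list. Members and lists were chosen with earlier results of these data known. A level below 3 counts would be 0.0115 to 0.0154 CPM; no interval for counting error is given. A549 and HEK293T marker lists and an interferon list checked the libraries.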

Additional observations from a re-analysis of the deposited data

How the results depend on the processing

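The number of partner subunits called moved as follows. In HEK293T SF3B2 against eGFP it was 0, became 1 with all 12 libraries of the line in the fit, and ran from 0 to 2 when libraries were left out in turn. In HEK293T against scramble it was 4 with SF3B2 (5 by the exact test and with all 12 libraries, 1 to 5 with a library left out), 4 with eGFP (2 with all 12 libraries, 5 with library size alone and without SF3B2 counts) and 3 with snaR-A (4 by DESeq2, 2 with all 12 libraries, 5 with library size alone and without SF3B2 counts, 2 to 4 with a library left out). In A549 it was 0 with SF3B2 against eGFP (0 to 1 with a library left out) and 0 against scramble (0 to 2). For the difference between lines it was 0, with 1 by DESeq2, 1 with at least 10 counts in every library, and 0 to 2 with a library left out. Against scramble in HEK293T, the exact test called 34.1% of all genes with SF3B2. The fit of all 12 libraries called 41.6% with SF3B2, 47.0% with eGFP and 26.4% with snaR-A. Library size alone and without SF3B2 counts each called 48.4% with eGFP and 37.0% with snaR-A, and DESeq2 called 37.6% with snaR-A. Signs turned for HEK293T SF3B2 against eGFP with library size alone for SF3B1 (-0.0949), SF3B3 (-0.1426), SF3B4 (-0.0785), SF3B6 (-0.0355) and SF3A2 (-0.0462), where the median of all genes moved by -0.16, and with library size without SF3B2 counts for SF3B1 (-0.048), SF3B3 (-0.0951) and SF3B4 (-0.0307). With a library left out, SF3B3 ran from -0.023 to 0.0646 and SF3A1 from -0.0286 to 0.61. In A549, library size without SF3B2 counts gave SF3B4 0.0141 and SF3B6 0.0219, and leaving out a library gave SF3B3 -0.0366 to 0.14, SF3B4 -0.0746 to 0.0565, SF3B6 -0.0565 to 0.009, PHF5A -0.16 to 0.0077 and SF3A1 -0.20 to 0.13. None of the values with the turned sign was called, and the cause was not tested. The -0.16 of PHF5A in A549, without eGFP replicate 3, kept its sign and was called (adjusted p = 0.0403).

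The replicate numbers did not pair the samples (median correlation of deviations -0.02 in HEK293T and -0.02 in A549). A replicate block changed no count of partner calls; the adjusted p of SF3B2 in HEK293T against eGFP was 0.0235 with it. Calls over all genes moved more. In HEK293T SF3B2 against eGFP 39 genes were called, 2079 by DESeq2, 644 by the exact test, 2075 with all 12 libraries, 126 with library size alone, 70 without SF3B2 counts, 109 with at least 10 counts, 1 with the replicate block and 1 to 1883 with a library left out. In HEK293T against scramble, leaving out a library took 7748 genes with SF3B2 to 3892 to 8996 and 8229 with snaR-A to 5131 to 8318. In A549 SF3B2 against eGFP 1516 became 2863 by DESeq2, 897 with all 12 libraries, 654 with the block and 379 to 3273 with a library left out. In A549 SF3B2 against scramble 50 became 214 by the exact test, 376 by DESeq2 and 0 to 4825 with a library left out. In A549 against scramble 322 with eGFP became 532 by DESeq2, 494 with all 12 libraries, 168 with the block and 205 to 326 with a library left out, and 4 with snaR-A became 38 by DESeq2, 20 by the exact test and 1 to 53 with a library left out. Leaving out A549 scramble and snaR-A replicates 3 together was chosen after seeing the data; 0 partners were called between snaR-A and scramble then. With 3 libraries a group the spread between replicates limits these tests, at a depth of at least 3760 counts for each partner; a lone left-out library leaves 2 in its group.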

Other observations

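Interferon-response genes were higher in A549 with eGFP and with SF3B2 than with scramble, though only part of the list was called with SF3B2. Their summed level was 3225 ± 393 CPM with eGFP, 769 ± 87.1 CPM with SF3B2, 546 ± 176 CPM with snaR-A and 379 ± 37.0 CPM with scramble (SD, n = 3). Against scramble, by edgeR's quasi-likelihood test with Benjamini-Hochberg adjustment, 12 of 12 genes rose with eGFP (median log2 fold change 3.34), beside 1.49% of all genes called, and 7 of 12 with SF3B2 (median 1.09), beside 0.233%. With SF3B2 all 12 had positive values (lowest 0.69) and an unadjusted p under 0.05, as did 2801 of all genes tested for that p. Scramble replicate 3 was included. With snaR-A 0 of 12 were called by the same test, 5 of 12 at an unadjusted p under 0.05, and the sum was 742 CPM in replicate 3, whose labels named both lines, against 401 and 494 CPM in the others. In HEK293T the sums stayed between 14.4 and 21.3 CPM in all libraries other than eGFP replicate 3, which held 43.1 CPM. Against scramble there, 5 of 12 genes were called with eGFP (4 higher, 1 lower), beside 48.8% of all genes. With SF3B2 3 of 10 tested were called (2 higher, 1 lower), beside 34.3%, and with snaR-A 1 of 11 (higher), beside 36.3%.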
